A study of Mus musculus with 48 samples.

Results

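The gene group described here is p53 (Trp53) with 31 of its target genes, 32 genes in all, among the 54752 genes of each count table. The members were taken by symbol, through the gene identifiers without their version, and all 32 were found in all 3 tables and had enough counts to be tested in each. By role they are 6 genes of p53 and its feedback loop, 10 genes of growth arrest and growth control, 12 genes of apoptosis and 4 genes of DNA repair and nucleotide supply.

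p53 is a transcription factor that is made all the time and destroyed almost as quickly, because one of its own targets, the ubiquitin ligase Mdm2, tags it for the proteasome. Stress signals such as DNA damage slow that destruction, and p53 then raises the transcription of genes that halt the cell cycle, repair DNA or start apoptosis, along with Mdm2 itself. Since the control acts mostly on the protein, the RNA of Trp53 says little about p53 activity, and activity is usually read from the targets. Mouse embryonic stem cells (ESCs) are known for abundant p53 and for a weak arrest after DNA damage.

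The study measured newly made RNA, labelled with 4-thiouridine (4SU), in mouse ESCs grown in a medium named L2i, with 2 libraries in each of 24 groups. Cycling FOXD3-iKO cells, in which 4-hydroxytamoxifen (4HT) removes the transcription factor FOXD3, were compared with ethanol-treated cells of the same line 8, 14, 24 and 32 h after treatment. Cycling OCT4-tetOff cells, in which doxycycline shuts off the pluripotency factor OCT4, were compared with water-treated cells at 16 and 24 h. FOXD3-iKO cells stopped in the cell cycle by a double thymidine block were treated with 4HT or ethanol, released 24 h after treatment and collected 0, 1, 2, 3, 4 and 5 h later. 4SU was given for 30 min to cycling cells and for 15 min to synchronized cells. Every 4HT library received 4HT and no ethanol library did, so loss of FOXD3 and exposure to the drug cannot be told apart, and the same holds for doxycycline and OCT4. The labels do not name the promoter behind the recombinase or the tet switch, the number of clones, or whether replicates were separate cultures. The p-values therefore reflect only the spread of libraries about the means of a fit, estimated over all groups in that fit. That spread may be technical.

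Levels are given as CPM, a gene's counts scaled to a common library total, after TMM scaling, a per-library factor that sets most genes level. Fold changes are log2 values with their standard error (SE) from edgeR's quasi-likelihood test. Calls required an adjusted p below 0.05, with Benjamini-Hochberg adjustment over all genes tested. Library totals lay between 21827951 and 30406124 counts for cycling FOXD3-iKO cells, 21113158 and 26112435 for OCT4-tetOff cells, and 7953841 and 17936504 for synchronized cells. Foxd3 lay between 5.05 and 9.99 CPM in the 8 cycling ethanol libraries and between 1.43 and 4.84 CPM in the 8 with 4HT, and Pou5f1, which encodes OCT4, between 176.0 and 225.9 CPM with water and 46.2 and 79.6 CPM with doxycycline. The summed level of 10 ESC markers was 2439 to 3244 CPM in every cycling FOXD3-iKO library, and that of 10 fibroblast (feeder) markers 4.11 to 8.71 CPM. Of the ESC markers, Sox2 had 0 counts in every library of the study and adds nothing to the sum. The share of counts in the ribosomal RNA copies Gm26917 and Gm42418 ran from 12.5% to 37.1%, from 18.1% to 43% and from 3.41% to 25.4% in the 3 tables. In such bulk samples, fewer cells of a type and less RNA per cell cannot be told apart.

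p53 binds DNA as a pair of half-sites, each made of purines, then C, then A or T at both central places, then G, then pyrimidines. The stretch from 250 bases before to 50 bases after each RefSeq start site (build GRCm38.p6) was searched, and 36 such windows were found for 25 of the 32 members. The half-site pattern reads the same on both strands, no other motif was searched, and matches on either strand are therefore counted once. At least 1 half-site lay in 11 of the 36 windows (30.6%), against 2745 of all 32851 windows (8.36%). Windows of the same gene can overlap, and the same half-site was counted in both windows of Aen. Shares per gene were not computed. A pair of half-sites at most 13 bases apart with at most 2 mismatches lay in 3 of the 36 (8.33%), against 697 of all (2.12%), and a pair with no mismatch in 1 of the 36 (2.78%), against 24 of all (0.0731%). The 3 paired windows belong to Cdkn1a, Sesn1 and Bax, and Mdm2 is printed with them as a target with a single half-site whose RNA rose. The 3 are shown for their paired match, and Mdm2 was picked with its rise known. Capitals mark the half-sites, in which the stated mismatches lie, the strand is that of the gene, and the sequences are RefSeq's.
Cdkn1a, chr17:29090891-29090952, plus strand, 0 mismatches, spacer 12: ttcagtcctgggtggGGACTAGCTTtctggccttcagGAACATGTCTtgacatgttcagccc
Sesn1, chr10:41887238-41887290, plus strand, 2 mismatches, spacer 3: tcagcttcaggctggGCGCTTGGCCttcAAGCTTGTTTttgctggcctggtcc
Bax, chr7:45467064-45467114, minus strand, 2 mismatches, spacer 1: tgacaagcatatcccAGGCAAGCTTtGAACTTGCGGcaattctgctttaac
Mdm2, chr10:117710920-117710959, minus strand, single half-site: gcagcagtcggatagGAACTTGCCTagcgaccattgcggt

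The pairs lay before the start site of their window, from 73 to 42 bases in Cdkn1a, 186 to 164 in Sesn1 and 201 to 181 in Bax. Cdkn1a and Sesn1 each had a window at another start site, which held 0 half-sites. Only the pair with the fewest mismatches in a window was marked, so other pairs may lie in the lower-case letters. Single half-sites were also found in the windows of Trp53, Ccng1, Gadd45a, Aen, Ei24 and Polk. These matches are descriptions of letters, and no binding was measured here. None of the 3 members with a paired window was called in cycling cells after loss of FOXD3. Mdm2 was, and of the other single half-site genes Ccng1, Gadd45a, Ei24 and Polk were, while Trp53 and Aen were not. Among members whose windows all held 0 half-sites, Mdm4, Btg2, Plk2, Ptpn14, Bbc3, Fas, Eda2r, Apaf1 and Ercc5 were called too. Plk3, Psrc1, Fbxw7, Gdf15, Phlda3 and Pidd1, also with 0, were not. Whether a half-site goes with a call was not tested. In other comparisons Cdkn1a and Sesn1 were called higher at 24 h of OCT4 loss, and Sesn1 over release, while Bax was called in neither.

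The members lie on 16 chromosomes, with 5 on chromosome 1 (Mdm4, Btg2, Ptpn14, Phlda3 and Ercc5) and 4 each on chromosomes 7 and 10. Counts cover the whole gene interval, introns included, so a level per kilobase (kb) of that interval is the fair comparison between genes. On the CPM per kb scale in ethanol-treated cycling cells at 24 h, Ccng1 (24.4), Cdkn1a (19.7) and Trp53 (16.1) stood highest, and Rrm2b (0.44), Perp (0.408) and Fas (0.0242) lowest. Mdm2 stood at 10.9, Bax at 9.18 and Pmaip1 at 1.70 CPM per kb. 13 members overlap another gene of the table: Mdm4, Cdkn1a, Gadd45a, Plk3, Ptpn14, Sesn1, Fbxw7, Bax, Fas, Ei24, Apaf1, Rrm2b and Polk. No source used here gives the strand setting of the counting. The counts of these members could include a neighbour's or lack reads that lie in both genes. Sox2, which overlaps Sox2ot on the same strand, had 0 counts in every library. The effect of overlap on the members was not tested.

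In cycling cells members were called only at 24 and 32 h, and each one called was higher after loss of FOXD3. No member was called at 8 or 14 h of FOXD3 loss, 7 rose at 24 h, 18 rose at 32 h, and none fell at any of the 4 times, although Sesn1 did at 32 h with the trend of each library with gene length removed. Of all genes tested, 0.00535% were called higher and 0.00535% lower at 8 h, 0.0107% and 0.00535% at 14 h, 0.401% and 0.0802% at 24 h, and 4.88% and 4.59% at 32 h. The median log2 fold change of the 32 members was 0.07, 0.12, 0.26 and 0.49 in time order, beside 0.00, 0.02, -0.02 and -0.05 over all 18707 genes tested. At an unadjusted p under 0.05, edgeR gave 0 members at 8 h and 2 at 14 h (2.82% and 4.01% of all genes), and DESeq2 called 0 at both times (0.016% and 0.0374% of all genes). Foxd3 itself, at -1.33 and -1.49, was not called at these times either (edgeR adjusted p = 0.386 and 0.145). The lack of calls thus does not show that no member had changed. Values above 0 were found for 22 members at 8 h and 26 at 14 h (50.6% and 54.8% of all genes).

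**Figure D1:**
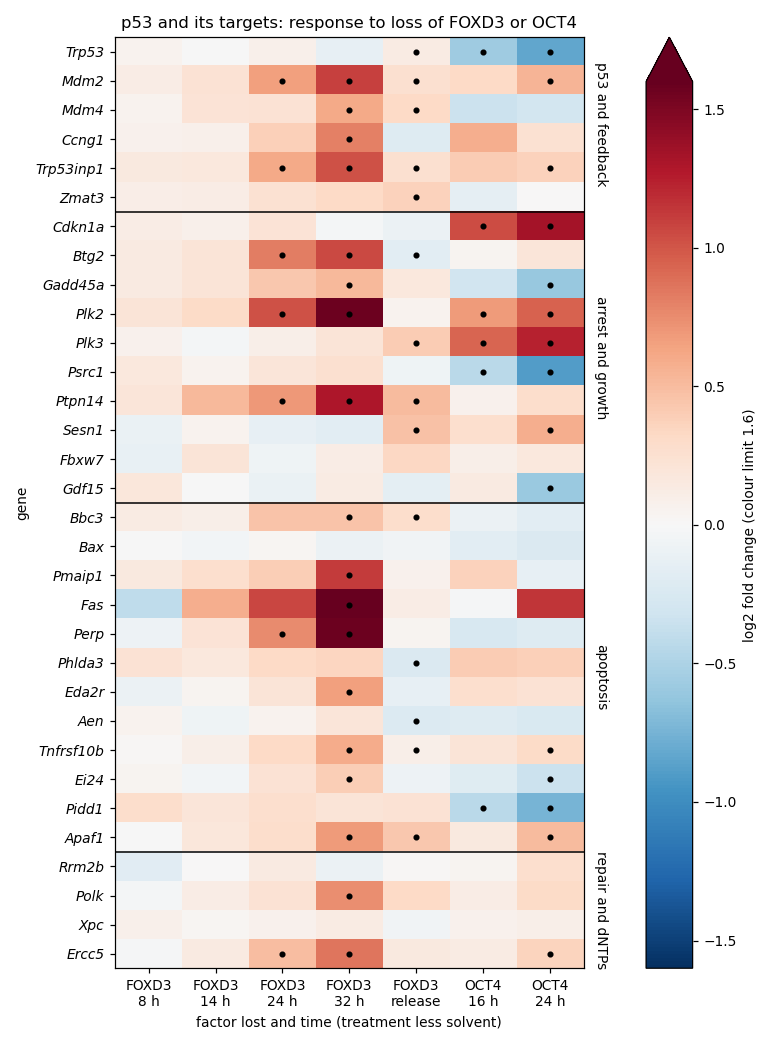
Log2 fold changes of the 32 members (rows, by role) in 7 comparisons (columns): loss of FOXD3 at 8, 14, 24 and 32 h in cycling cells and over all release times in synchronized cells, and loss of OCT4 at 16 and 24 h. Red is higher and blue lower after treatment, and a dot marks a called change. Dots increase from 0 at 8 and 14 h to 7 at 24 h and 18 at 32 h of FOXD3 loss, all on red, while OCT4 loss shows dots on both colours.

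In the feedback loop 2 of 6 genes rose at 24 h and 4 at 32 h, and Trp53 itself was called at no time. It read 172.1 and 209.9 CPM with ethanol and 174.0 and 174.9 CPM with 4HT at 32 h, a log2 change of -0.13 ± 0.11 (SE; edgeR adjusted p = 0.543), and the groups overlapped. Mdm2 read 242.3 and 235.6 CPM with ethanol and 372.7 and 377.4 CPM with 4HT at 24 h, and 230.2 and 244.3 against 504.3 and 504.8 CPM at 32 h. Both 4HT libraries lay above both ethanol libraries at each of these times, with a rise of 0.65 ± 0.09 (edgeR adjusted p = 0.00607) and then of 1.09 ± 0.09 (adjusted p = 1.13e-05). At 8 h the ethanol libraries of Mdm2 held 243.0 and 243.6 CPM and those with 4HT 258.1 and 268.0 CPM, close to the later ethanol level.

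Trp53inp1, a nuclear partner of p53 that promotes its activating phosphorylation, followed Mdm2. It read 258.1 and 262.3 CPM with ethanol and 522.0 and 529.2 CPM with 4HT at 32 h (log2 change 1.01 ± 0.09, edgeR adjusted p = 1.37e-05), and rose already at 24 h by 0.60 ± 0.08 (adjusted p = 0.00885). Mdm4, the relative of Mdm2 that blocks p53 on its targets, read 485.3 and 372.8 CPM with ethanol and 653.3 and 654.9 CPM with 4HT at 32 h. Its groups did not overlap, although the ethanol libraries stood far apart, and the rise was 0.61 ± 0.14 (adjusted p = 0.0144). Ccng1, a cyclin that brings a phosphatase to Mdm2, read 139.0 and 165.0 against 266.8 and 265.9 CPM at 32 h and rose by 0.81 ± 0.11 (adjusted p = 0.000583). The ethanol libraries of Ccng1 stood lower at 24 and 32 h than at 8 and 14 h. The RNA-binding protein gene Zmat3 was not called at 32 h (0.31 ± 0.11, adjusted p = 0.107).

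Of the 10 arrest and growth-control genes, 3 rose at 24 h and 4 at 32 h. Plk2, a polo-like kinase, read 34.1 and 34.8 CPM with ethanol and 67.8 and 72.2 CPM with 4HT at 24 h, and 18.9 and 30.6 against 74.5 and 72.9 CPM at 32 h. The 4HT libraries were higher than the ethanol libraries at both times, with log2 changes of 1.02 ± 0.15 (edgeR adjusted p = 0.0104) and 1.57 ± 0.15 (adjusted p = 4.41e-05). The controls moved too: the ethanol mean of Plk2 was 51.0 CPM at 8 h, 51.0 at 14 h, 34.5 at 24 h and 24.8 at 32 h, while the 4HT mean went from 58.7 through 62.8 and 70.0 to 73.7 CPM. Btg2, an antiproliferative regulator of mRNA decay, had the same shape, with ethanol means of 60.4, 66.6, 45.1 and 34.7 CPM and 4HT means of 67.0, 76.6, 79.7 and 72.5 CPM. Its rise was 0.82 ± 0.14 (adjusted p = 0.018) at 24 h, and 1.06 ± 0.14 (adjusted p = 0.00037) followed at 32 h. The ethanol level at 32 h less that at 24 h was called for neither gene (Plk2 -0.47 ± 0.16, adjusted p = 0.0896, and Btg2 -0.38 ± 0.14, adjusted p = 0.123).

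Ptpn14, a tyrosine phosphatase that restrains the growth regulator YAP, differed from both in that the controls stayed nearly level. Its ethanol means were 88.6, 103.6, 111.1 and 98.0 CPM in time order and its 4HT means 101.1, 148.1, 179.0 and 239.6 CPM. At 32 h the 4HT libraries read 243.3 and 236.0 CPM and the ethanol libraries 107.7 and 88.3 CPM, with no overlap (log2 change 1.29 ± 0.12, edgeR adjusted p = 2.03e-05). Gadd45a, a stress protein that binds proliferating cell nuclear antigen, rose at 32 h by 0.51 ± 0.13 (adjusted p = 0.0283), from 10.8 and 13.6 to 16.3 and 18.6 CPM.

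Cdkn1a encodes p21, the inhibitor of cyclin-dependent kinases through which p53 halts the cell cycle in most cell types, and it did not pass the test at any time of FOXD3 loss. At 32 h it read 155.5 and 214.5 CPM with ethanol and 186.1 and 177.5 CPM with 4HT, so that both treated libraries lay between the controls (log2 change -0.03 ± 0.13, edgeR adjusted p = 0.942). At 24 h the 4HT libraries (215.0 and 234.6 CPM) stood above the ethanol libraries (186.9 and 198.0 CPM), by 0.22 ± 0.13 (adjusted p = 0.743). Plk3 (0.21), Psrc1 (0.26), Gdf15 (0.14), Fbxw7 (0.12) and the mTORC1 inhibitor gene Sesn1 (-0.17) were not called at 32 h either. With the length trend removed, Sesn1 was called lower (-0.27, edgeR adjusted p = 0.0293), the 1 member called lower at 32 h in that setting.

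Of the 12 apoptosis genes 1 rose at 24 h and 8 at 32 h. Fas, a death receptor, had the largest log2 change of the 32 members but a low level. It read 0.735 and 0.268 CPM with ethanol, from 16 and 6 counts, and 2.78 and 2.94 CPM with 4HT, from 67 and 76 counts, and the rise was 2.51 ± 0.32 (edgeR adjusted p = 0.00034). Perp, a membrane protein of desmosomes that promotes apoptosis, read 4.41 and 5.44 against 14.5 and 14.6 CPM at 32 h. Both 4HT libraries were well above the controls (1.56 ± 0.13, adjusted p = 1.24e-05), and at 24 h Perp was the only called apoptosis gene (0.76 ± 0.13, adjusted p = 0.0239). The controls of Perp moved, as those of Plk2 and Btg2 did: its ethanol libraries stood lower at 24 and 32 h than at 8 and 14 h. Its 4HT libraries at 24 h overlapped its ethanol libraries at 14 h. Pmaip1 encodes the BH3-only protein NOXA and read 10.1 and 15.0 against 27.1 and 27.3 CPM at 32 h (1.12 ± 0.15, adjusted p = 0.000425).

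Bbc3, which encodes the BH3-only protein PUMA, read 14.2 and 19.0 against 23.4 and 22.4 CPM at 32 h, a small rise near the threshold (0.46 ± 0.13, edgeR adjusted p = 0.041). That call was lost in 14 of 24 alternatives, over which the value ran from 0.27 to 0.69. The death receptor gene Tnfrsf10b (0.59 ± 0.09, adjusted p = 0.000882) and the receptor gene Eda2r (0.66 ± 0.15, adjusted p = 0.0129) rose too. So did Apaf1, the scaffold of the apoptosome (0.68 ± 0.14, adjusted p = 0.00709), and Ei24, a protein of the endoplasmic reticulum (0.39 ± 0.08, adjusted p = 0.00679). Bax, the pore former on which PUMA and NOXA act, was not among them: it read 41.8 and 60.6 CPM with ethanol and 49.9 and 46.2 CPM with 4HT, the treated libraries lying between the controls (-0.09 ± 0.13, adjusted p = 0.755). The AKT repressor gene Phlda3 (0.34), the caspase-2 scaffold gene Pidd1 (0.21) and the exonuclease gene Aen (0.19) were not called.

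Of the 4 repair and nucleotide-supply genes, the nuclease gene Ercc5 (XPG) rose by 0.50 ± 0.09 at 24 h (edgeR adjusted p = 0.0209), and the rise was 0.85 ± 0.09 at the later time (adjusted p = 4.68e-05). At 32 h it read 39.2 and 33.7 CPM with ethanol and 65.0 and 66.6 CPM with 4HT, without overlap. The translesion polymerase gene Polk rose at 32 h by 0.75 ± 0.15 (adjusted p = 0.00846), from 142.3 and 97.6 to 193.8 and 208.8 CPM. The damage sensor gene Xpc (0.13) and Rrm2b (-0.09), the p53-induced subunit of ribonucleotide reductase, were not called.

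**Figure D2:**
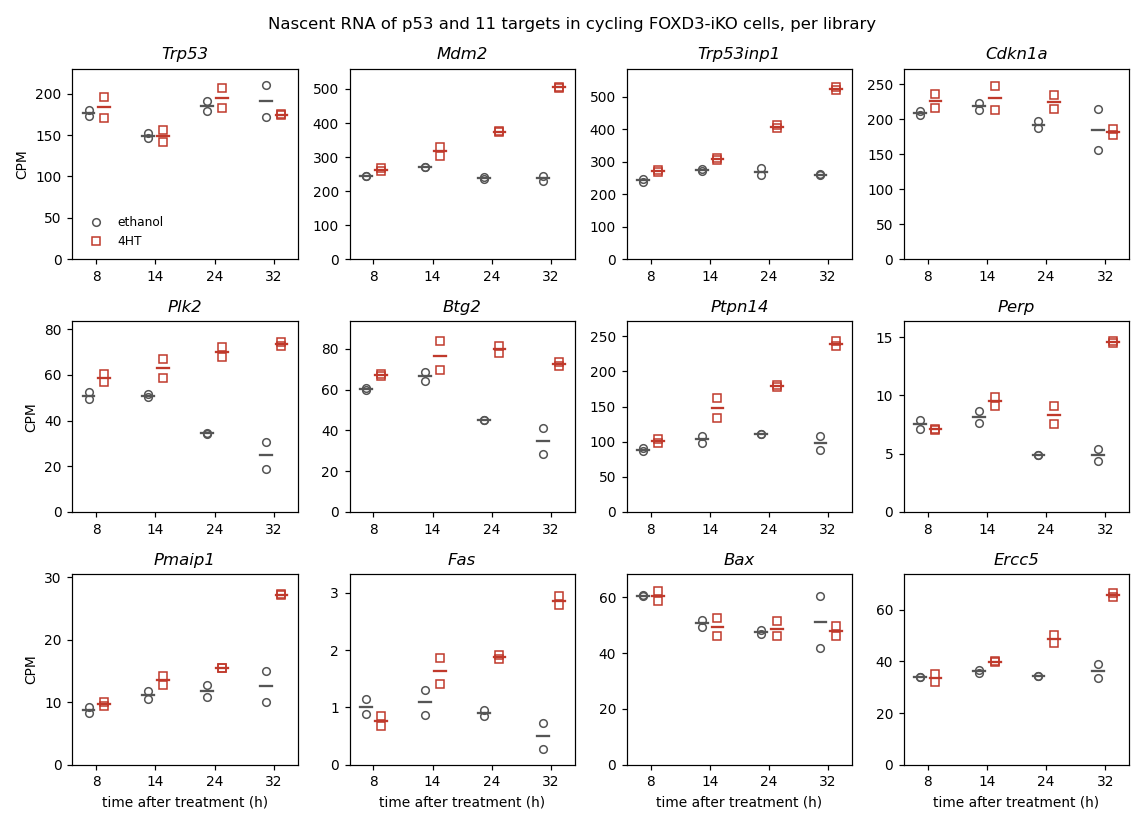
Level in CPM (vertical axes, starting at 0) against hours after treatment (horizontal axes) for Trp53 and 11 targets in cycling FOXD3-iKO cells. Grey circles are ethanol libraries, red squares 4HT libraries and short lines the means of 2. For Mdm2 the 4HT mean goes from 263.0 CPM at 8 h to 504.5 CPM at 32 h over level controls, for Plk2 and Btg2 the ethanol means are lower at 32 h than at 8 h, and for Trp53, Cdkn1a and Bax the groups overlap at 32 h.

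The 7 members called at 24 h were all among the 18 called at 32 h, of which they make up 38.9%. For 17 of the 32 members the log2 change was larger at each later time. The share of all genes was computed neither for this count nor for the overlap of the 24 and 32 h calls. Whether they are unusual was therefore not tested. Across the 4 times, 6 members were called for a response that differed with time, beside 0.454% of all genes tested: Perp, Mdm2, Trp53inp1, Ercc5, Plk2 and Ptpn14. Their responses at 32 h exceeded those at 8 h by 1.65 ± 0.18, 0.98 ± 0.12, 0.86 ± 0.12, 0.87 ± 0.12, 1.37 ± 0.21 and 1.10 ± 0.16, with edgeR adjusted p from 0.00396 (Perp) to 0.029 (Ptpn14). For Perp and Plk2 this difference holds both a higher 4HT level and a lower ethanol level at 32 h than at 8 h. Fas missed the threshold (2.92 ± 0.48, adjusted p = 0.0521). The count was 1 without ethanol 8 h replicate 1 or either 4HT 32 h replicate, and 12 without ethanol 32 h replicate 1. Between 24 and 32 h alone no member was called, with 0% of all genes in either direction, although 26 of 32 members had the larger value at 32 h (47.2% of all genes). In edgeR 12 members had an unadjusted p under 0.05, all higher at 32 h (3.37% of all genes were), and DESeq2 called 2 (0.116% of all genes). Without ethanol 32 h replicate 1 or 2, edgeR called 5 or 1. The library names number the 8 and 14 h samples in a different run of names from the 24 and 32 h samples, and the effect of this split cannot be told apart from that of time between 8 and 32 h.

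Ethanol-treated cells at 32 h were also compared with those at 24 h, as a check on drift of the controls. Gdf15, a secreted stress cytokine of the TGF-beta family, fell by 1.02 ± 0.14 on the log2 scale (edgeR adjusted p = 0.0028), from 12.5 and 14.2 to 5.88 and 7.23 CPM, and was the only member called in either direction. Over all genes 2.70% were higher and 2.68% lower at the later time. The 2 ethanol libraries of 32 h differed in ribosomal share (14.3% and 28%, beside 13.9% and 12.5% with 4HT), and without replicate 2 the comparison called 12 members.

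The calls at 24 h rest on all 4 libraries of that time: without any 1 of them 0 or 1 members were called, and with the trend of each library with gene length removed 13 were. At 32 h, 6 members (Mdm2, Plk2, Ptpn14, Fas, Perp and Ercc5) kept their call in all 24 alternatives, and the count was 11 without 4HT replicate 2 and 6 in a fit of the 4 libraries alone. With total counts in place of TMM the median of all genes at 32 h moved from -0.05 to 0.12, all 32 members were above 0, with a median of 0.66, and 20 rose. Markers of other lineages moved at the same times. At 32 h 5 of 8 tested primitive endoderm markers rose, their sum going from 141.5 to 163.8 CPM with ethanol to 220.8 to 228.0 CPM with 4HT, and 2 of 9 trophoblast markers rose (48.9 to 68.1 against 87.0 to 89.5 CPM). Of 9 ESC markers 1 fell, with sums of 2944 to 3209 and 2669 to 2704 CPM. Their part in the p53 target result was not tested.

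Genes that act on p53 were tested as a list of their own. Of all genes tested, 0.401% were higher and 0.0802% lower at 24 h of FOXD3 loss, and 4.88% and 4.59% at 32 h. Of 24 upstream regulators tested 1 rose at 24 h, the p53 family member Trp73 (0.73 ± 0.13, edgeR adjusted p = 0.028), and at 32 h 2 rose and 2 fell. At 32 h Trp73 rose by 1.52 ± 0.14 (adjusted p = 2.48e-05) and the p53 ubiquitin ligase gene Rchy1 by 0.37 ± 0.08 (adjusted p = 0.0101). Rpl11 and Rpl5, ribosomal proteins that can hold Mdm2 off p53, fell by 0.50 and 0.36 (adjusted p = 0.0135 and 0.0395). Among 29 further p53 targets tested, 3 rose at 24 h, and 9 rose and 1 fell at 32 h. The leading ones at 32 h were the epoxide hydrolase gene Ephx1 (1.10 ± 0.09), the peptide transporter gene Tap1 (1.81 ± 0.22), Abhd4 (0.91 ± 0.11) and Ckap2 (0.59 ± 0.08). At 24 h the 3 were Ephx1 (0.58), Rap2b (0.54) and Tap1 (0.88).

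After loss of OCT4 members were called in both directions. At 16 h 3 members rose and 3 fell, where 7.94% of all 17713 genes tested rose and 8.91% fell, and at 24 h 9 rose and 6 fell, where 18.1% and 18.7% did. The 15 members called at 24 h thus stood beside a background in which calls were common. The median log2 change of the members was 0.08 at 16 h and 0.22 at 24 h, beside 0.00 and -0.01 over all genes. All 6 members called at 16 h were called in the same direction at 24 h, and the same share over all genes was not computed.

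Cdkn1a and Plk3 showed the largest rises. Cdkn1a read 220.1 and 240.0 CPM with water and 481.0 and 464.0 CPM with doxycycline at 16 h, and 200.2 and 199.0 against 544.5 and 462.0 CPM at 24 h. Each doxycycline library lay far above its controls, with log2 changes of 1.04 ± 0.12 (edgeR adjusted p = 0.000363) and 1.33 ± 0.12 (adjusted p = 3.9e-05). Plk3 read 9.24 and 10.47 against 25.2 and 21.1 CPM at 24 h and rose by 1.24 ± 0.13 (adjusted p = 9.25e-05). Plk2 rose at both times, by 0.94 ± 0.17 at 24 h (adjusted p = 0.00295), although doxycycline replicate 2 (59.0 CPM) stood below replicate 1 (79.1 CPM), as its water controls did (30.6 and 41.4 CPM). Mdm2 read 237.0 and 236.6 CPM with water and 344.4 CPM in both doxycycline libraries at 24 h and rose by 0.54 ± 0.10 (adjusted p = 0.0026). The other rises at 24 h were Sesn1 (0.58), Apaf1 (0.51), Trp53inp1 (0.37), Ercc5 (0.36) and Tnfrsf10b (0.31). The calls of Tnfrsf10b and Trp53inp1 were lost in 12 and 8 of 16 alternatives.

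Trp53 itself fell after loss of OCT4. It read 199.3 and 195.4 CPM with water and 116.8 and 105.1 CPM with doxycycline at 24 h, well apart (log2 change -0.83 ± 0.10, edgeR adjusted p = 0.000301), after -0.57 ± 0.10 at 16 h (adjusted p = 0.00492). Psrc1, a microtubule-associated protein, went from 71.1 and 59.6 to 36.6 and 33.9 CPM at 24 h (-0.89 ± 0.11, adjusted p = 0.000221). Pidd1 went from 22.4 and 23.1 to 13.9 and 13.3 CPM (-0.74 ± 0.11, adjusted p = 0.00102). Gadd45a (-0.60), Gdf15 (-0.60) and Ei24 (-0.35) fell at 24 h too. Of the apoptosis genes that rose after FOXD3 loss, Perp (-0.21), Bbc3 (-0.17) and Pmaip1 (-0.14) were not called at 24 h of OCT4 loss. Fas rested on 5 to 30 counts a library and was not called (1.14 ± 0.48, adjusted p = 0.0866).

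**Figure D3:**
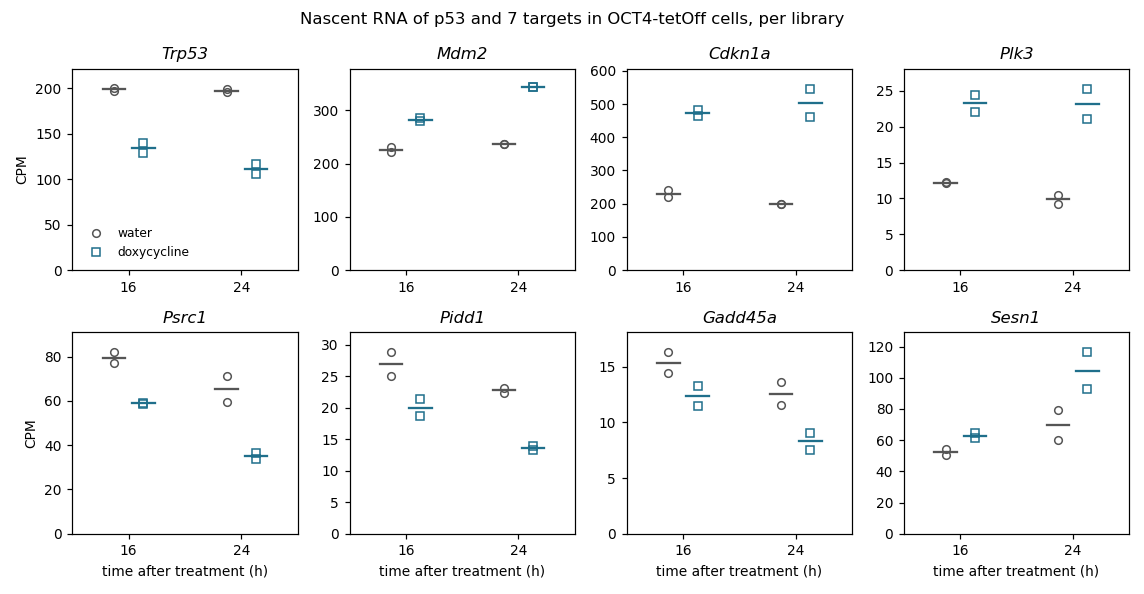
Level in CPM (vertical axes, starting at 0) against hours after treatment (horizontal axes) for Trp53 and 7 targets in OCT4-tetOff cells. Grey circles are water libraries, blue squares doxycycline libraries and short lines the means of 2. At 24 h Cdkn1a reads 544.5 and 462.0 CPM with doxycycline over 200.2 and 199.0 CPM with water, while Trp53, Psrc1, Pidd1 and Gadd45a lie lower with doxycycline.

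The OCT4 response at 24 h differed from that at 16 h for 0 members and 0% of all genes in either direction. At an unadjusted p under 0.05 edgeR gave 2 members (11% of all genes), and DESeq2 called 0 (0.563% of all genes). The 16 h count moved with the processing, reaching 20 in a fit of the 4 libraries alone and 15 with the length trend removed, and it was 2 or 3 without any 1 of the 16 h libraries and 10 or 11 without either 24 h doxycycline library. At 24 h Cdkn1a, Plk2, Plk3, Trp53, Psrc1 and Pidd1 kept their call in all 16 alternatives, and a fit of the 4 libraries alone called 8 members. ESC markers moved strongly at both times: 9 of 9 tested fell at 24 h, and their sum went from 2924 to 2937 CPM to 1010 to 1136 CPM. Trophoblast markers went from 57.4 to 61.4 CPM to 128.0 to 155.9 CPM (4 of 9 rose), and 6 of 8 primitive endoderm markers rose and 1 fell. The fibroblast marker sum was 14.2 to 16.8 CPM with water and 26.3 to 29.2 CPM with doxycycline over both times, and 2 of 4 tested, Pdgfrb and Thy1, rose at 24 h. The part of these markers in these results was not tested.

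Among other genes of the pathway, loss of OCT4 lowered more than it raised upstream. Of all genes tested 7.94% rose and 8.91% fell at 16 h, and 18.1% and 18.7% did at 24 h. Of 24 regulators tested 5 fell at 16 h and none rose, and at 24 h 3 rose and 10 fell, led by Trp73 (-2.81 ± 0.19, edgeR adjusted p = 7.49e-06), the deacetylase gene Sirt1 (-0.86 ± 0.10), Chek2 (-0.52 ± 0.08) and Chek1 (-0.45 ± 0.08). The last pair encode checkpoint kinases that act on p53. Of 30 further targets 6 rose and 2 fell at 16 h, and 7 rose and 6 fell at 24 h, led by Epha2 (-2.26 ± 0.10), Kitl (2.90 ± 0.17), Steap3 (1.19 ± 0.10) and Cd82 (2.07 ± 0.22).

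The responses to the 2 losses at 24 h were then compared directly, in 1 fit of the 8 libraries of that time. 7 members stood higher in the FOXD3 response and 2 in the OCT4 response, where 9.08% and 7.40% of 18437 genes did. The 2 were Cdkn1a (-1.10 ± 0.18, edgeR adjusted p = 0.00286) and Plk3 (-1.13 ± 0.21, adjusted p = 0.00574), which rose after OCT4 loss and were not called after FOXD3 loss. The 7 were Psrc1 (1.09 ± 0.17, adjusted p = 0.00201), Gadd45a (1.03 ± 0.19, adjusted p = 0.00527), Pidd1 (1.02 ± 0.17, adjusted p = 0.00279), Perp (0.97 ± 0.27, adjusted p = 0.0333), Trp53 (0.91 ± 0.17, adjusted p = 0.006), Bbc3 (0.63 ± 0.16, adjusted p = 0.0241) and Ei24 (0.58 ± 0.14, adjusted p = 0.0201). Of the 7, only Perp was called after FOXD3 loss at 24 h. Psrc1, Gadd45a, Pidd1, Trp53 and Ei24 were called lower after OCT4 loss at 24 h, and Bbc3 was called in neither.

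By contrast Mdm2 (0.11 ± 0.16, edgeR adjusted p = 0.66), Plk2 (0.09 ± 0.23, adjusted p = 0.82) and Ercc5 (0.14 ± 0.14, adjusted p = 0.534) were not called for a difference, which does not show that they respond alike. Cdkn1a, Plk3, Psrc1, Gadd45a and Pidd1 kept their call in all 15 alternatives, Bbc3 and Perp in 8. Without FOXD3-iKO ethanol 24 h replicate 1, 5 members were called, and Trp53 was not one of them. Foxd3 itself fell after loss of OCT4, by 3.12 ± 0.20 on the log2 scale at 24 h (adjusted p = 5.62e-06), so both arms of this comparison hold less Foxd3 RNA. The cell line and the drug go with the factor lost and cannot be told apart from it.

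**Figure D4:**
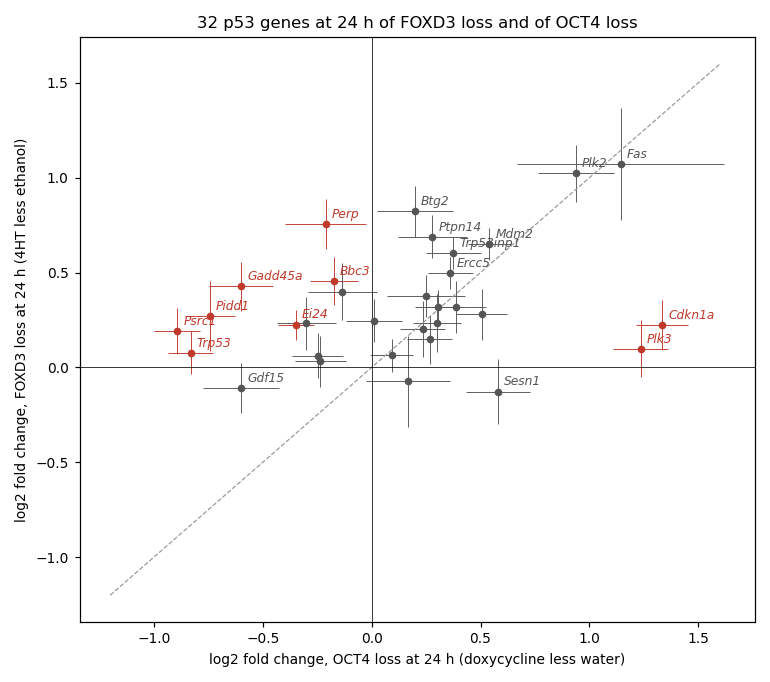
Log2 fold change at 24 h of FOXD3 loss (vertical axis) against that at 24 h of OCT4 loss (horizontal axis) for the 32 members, with bars of 1 SE and a dashed line of equal response. Red points are the 9 members called for a difference between the responses; Cdkn1a and Plk3 lie to the right and Trp53, Psrc1, Pidd1 and Gadd45a to the left of the line, while Plk2 and Mdm2 lie close to it.

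The 18 members that rose at 32 h of FOXD3 loss and the 9 that rose at 24 h of OCT4 loss had 6 in common, 33.3% of the first and 66.7% of the second: Mdm2, Trp53inp1, Plk2, Tnfrsf10b, Apaf1 and Ercc5. Of these, Tnfrsf10b and Trp53inp1 rest on the OCT4 calls that 12 and 8 of 16 alternatives lost. Gadd45a and Ei24 rose in the one and fell in the other. The times differ between these lists, so they are set side by side only. The overlap over all genes was not computed, and whether 6 exceeds what the list sizes alone give was not tested.

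In synchronized cells the levels of several members differed from those of cycling cells even with ethanol alone. The tables differ in labelling time and were scaled separately, so the values are set side by side with no test. Fas stood at 0.898 CPM in cycling ethanol cells at 24 h and 7.39 CPM in arrested ethanol cells, Perp at 4.92 and 18.9 CPM, Pmaip1 at 11.8 and 43.8 CPM, and Ptpn14 at 111.1 and 338.8 CPM. Mdm2 stood at 239.0 and 341.2 CPM and Trp53inp1 at 269.3 and 465.3 CPM. Cdkn1a (192.4 and 141.2 CPM), Psrc1 (66.8 and 37.8 CPM), Gdf15 (13.4 and 4.23 CPM) and Trp53 (184.8 and 123.4 CPM) had the lower level in the arrested cells.

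As cells left the thymidine block, 11 members changed over the 6 times with ethanol and 5 with 4HT, beside 19.4% and 15.4% of all genes tested. Pmaip1 fell in both arms. It read 46.4 and 41.1 CPM in arrested ethanol cells and 25.8 and 26 CPM at 5 h (log2 change -0.76, edgeR adjusted p over the times 0.000293), and 51.1 and 45.6 CPM against 26.6 and 27 CPM with 4HT (-0.85, adjusted p over the times 9.74e-05). Psrc1 did the opposite, from 37.5 and 38.1 to 74.8 and 73.7 CPM with ethanol (0.97, adjusted p over the times 1.31e-05) and from 45.6 and 42.7 to 66.1 and 62.5 CPM with 4HT (0.54, adjusted p over the times 0.000327).

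Btg2 was called over the times in both arms, and at 1 h it was lower than at 0 h by 0.52 with ethanol and 0.77 with 4HT. The mean of Plk2 was lower at 1 h than at 0 h by 0.31 with ethanol and 0.62 with 4HT, and at 2 h it differed from 0 h by 0.13 and -0.05 (adjusted p over the times 0.0389 and 0.00684). Fas read 7.13 and 7.65 CPM in arrested ethanol cells and 2.72 and 2.82 CPM at 5 h (-1.42, edgeR adjusted p over the 6 times 0.0291), Ercc5 was lower by 0.79 and Trp53inp1 by 0.83 at 1 h than at 0 h (adjusted p over the 6 times 0.018 and 0.0222). Cdkn1a was higher at 5 h than at 0 h with ethanol (226.5 and 196.1 against 140.4 and 141.9 CPM, 0.58, adjusted p over the times 0.0108) and was not called over the times with 4HT. The other members called with ethanol were Mdm4, Sesn1 and Perp, and with 4HT Bbc3. A fit of the ethanol libraries alone called 1 member and a fit of the 4HT libraries alone 19, and leaving out 1 library gave 4 to 21 and 4 to 10. With ethanol the count was 5 or 4 without 0 h replicate 1 or 2, 7 without either 1 h replicate and 21 without 3 h replicate 2, and with 4HT it was 10 without either ethanol 3 h replicate.

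Loss of FOXD3 in synchronized cells was estimated as 1 effect over all 6 release times. It gave 11 higher and 3 lower members, beside 18.6% and 18.4% of all 17739 genes tested, with a median of 0.11 against -0.01 over all genes. Ptpn14 had the lowest, median and highest values of 230.2, 282.9 and 356.7 CPM over the 12 ethanol libraries and of 359.2, 433.8 and 472.4 CPM over the 12 with 4HT. Every 4HT library thus lay above every ethanol library, and the rise was 0.51 ± 0.05 (edgeR adjusted p = 4.94e-07). Apaf1 (120.6, 134.6 and 172.8 against 161.6, 186.2 and 217.2 CPM) rose by 0.43 ± 0.05 (adjusted p = 3.61e-06), with some overlap of the groups.

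Sesn1, which was not called in cycling cells after FOXD3 loss, rose in the synchronized ones by 0.47 ± 0.09 (edgeR adjusted p = 0.000455), and the difference between the settings was not tested over release. Its ethanol values were 49.5, 70.8 and 93.4 CPM and its 4HT values 71.5, 97.9 and 115.3 CPM in the same order. Mdm2 rose by 0.26 ± 0.04 (adjusted p = 0.000137), Mdm4 by 0.31 ± 0.05, Trp53inp1 by 0.25 ± 0.07, Zmat3 by 0.37 ± 0.11, Plk3 by 0.40 ± 0.12 and Bbc3 by 0.28 ± 0.06. Trp53 (0.13) and Tnfrsf10b (0.09) were called with small changes, and each call was lost or changed sign in 23 of 32 alternatives. Aen fell by 0.22 ± 0.05 (adjusted p = 0.00233), Phlda3 by 0.23 ± 0.07 and Btg2 by 0.16 ± 0.05. Cdkn1a was not called (-0.10 ± 0.06, adjusted p = 0.219), nor were Plk2 (0.05), Perp (0.05), Pmaip1 (0.07) and Fas (0.12), 4 of the genes with the larger rises in cycling cells.

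The direction of the release result depends on the scaling. With total counts in place of TMM the median of all genes was -0.21 and that of the members -0.09, and 3 members were called higher and 10 lower. With total counts outside the ribosomal copies these were -0.17, -0.05, 4 and 9, and with the length trend removed 17 were higher and 1 lower. Trp53 and Tnfrsf10b turned negative with both total-count scalings (-0.08 and -0.11 with total counts alone). Ptpn14, Apaf1 and Sesn1 stayed called higher and Aen lower in all 32 alternatives. Of 7 trophoblast markers tested 2 rose and 1 fell, with sums of 31.1 to 53.7 CPM with ethanol and 49.4 to 77.9 CPM with 4HT, and of 7 primitive endoderm markers 4 rose and 1 fell (208.3 to 281.1 against 286.1 to 403.1 CPM). Their part in the release result was not tested.

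**Figure D5:**
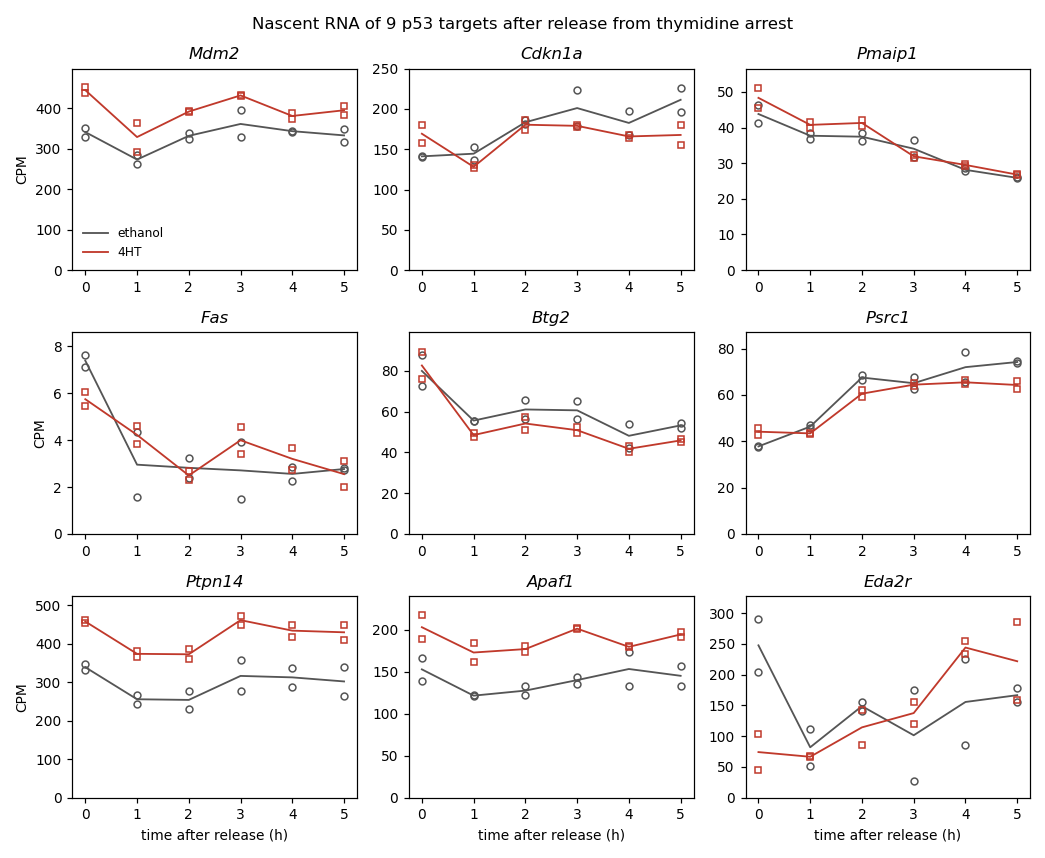
Level in CPM (vertical axes, starting at 0) against hours after release from thymidine arrest (horizontal axes) for 9 targets in synchronized FOXD3-iKO cells. Grey circles are ethanol libraries, red squares 4HT libraries, and lines join the means of 2. Ptpn14 lies between 359.2 and 472.4 CPM in all 4HT libraries and at 356.7 CPM or below in all ethanol libraries, Pmaip1 and Btg2 fall and Psrc1 rises in both arms, and Eda2r varies widely between replicates.

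No single release time carried the result. At 0 h 0 members were called (0.389% of all genes higher, 0.0564% lower), and 11 had an unadjusted p under 0.05 in edgeR (17.7% of all genes), while DESeq2 called 6 (4.94% of all genes). At 1 h 1 member was called, Apaf1 (0.51 ± 0.13, adjusted p = 0.0496; 1.82% higher, 0.581% lower). None was called at 2 h (0.524% and 0.265%; 6 members and 17.5% of all genes at an unadjusted p under 0.05, 2 members and 4.30% by DESeq2). At 3 h Sesn1 (0.83 ± 0.18, adjusted p = 0.0295), Apaf1 (0.52 ± 0.13, adjusted p = 0.042) and Ptpn14 (0.54 ± 0.14, adjusted p = 0.0488) rose, beside 2.28% and 1.21% of all genes. At 4 h (0.366% and 0.152%) and 5 h (0.958% and 1.13%) none was called, with 2 and 9 members at an unadjusted p under 0.05 (11.3% and 19.7% of all genes) and 0 and 3 by DESeq2 (1.22% and 7.53%). The call of Apaf1 at 1 h was lost in 25 of 32 alternatives, and at 3 h those of Ptpn14, Apaf1 and Sesn1 in 25, 19 and 5. The ribosomal share stood apart between the arms at 0 h (3.41% to 4.92% with ethanol, 15.6% to 19.7% with 4HT) and at 2 h (4.39% to 10.6% and 16.5% to 21.1%). The ethanol replicates of 3 h stood apart: replicate 1 had 25.4% ribosomal counts and 27.7 CPM of Eda2r, and replicate 2 had 4.77% and 175.4 CPM. Without either of them the counts were 8 at 0 h, 3 at 1 h, 2 at 2 h and 1 at 5 h, and at 3 h 1 without replicate 1 and 9 without replicate 2. The part of the ribosomal share in these counts was not tested.

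No member was called for a FOXD3 response that differed over release (0 of 32 and 0% of all genes). At an unadjusted p under 0.05, edgeR gave 2 members and 4.97% of all genes, DESeq2 called 0 members and 0% of all genes, and with no low-count filter edgeR called 4 members. Nor was any member called for a difference between the cycling response at 24 h and the arrested response at 0 h, beside 0% of all genes higher and 0.0108% lower. There 15 members had an unadjusted p under 0.05 (17.1% of all genes), 12 of them with the larger value in cycling cells (9.47% of all genes), and DESeq2 called 7 (2.16% of all genes), so the comparison depends on the tool. Without 4HT 0 h replicate 2 edgeR called 9.

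The 11 members that rose over release and the 18 that rose at 32 h in cycling cells had 7 in common, 63.6% and 38.9% of the lists: Mdm2, Mdm4, Trp53inp1, Ptpn14, Bbc3, Tnfrsf10b and Apaf1. Whether 7 exceeds what the list sizes alone give was not tested, and the overlap over all genes was not computed. Btg2 rose at 32 h in cycling cells and fell over release, although with the length trend removed its value over release was 0.00. Of the other pathway genes over release, 10 of 24 upstream regulators rose and 2 fell, beside 18.6% and 18.4% of all genes. They were led by Rpl5 (-0.29 ± 0.04, edgeR adjusted p = 4.48e-05), the deubiquitinase gene Usp7 (0.31 ± 0.05), the phosphatase gene Ppm1d (0.25 ± 0.04) and Trp53bp1 (0.24 ± 0.04). Of 30 further targets 6 rose and 8 fell, led by Pcna (-0.37 ± 0.05), Trp53cor1 (-0.35 ± 0.05), Ier5 (-0.53 ± 0.10) and Pvt1 (0.33 ± 0.07). The counts of both lists are with TMM scaling, on which the direction of the members over release depended.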

How the data were processed

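The authors deposited whole-number counts per gene in 3 tables, not normalized. Per the submitters' processing notes, STAR, mm10 and featureCounts were used. No source used here gives a version, a strand option or a rule for multiply mapped reads. Quasi-likelihood fits of each complete table used edgeR 4.0.16 under R 4.3.3 (TMM factors, filterByExpr with a minimum count of 10, 1 mean per group). SE was taken from the fold change and its F statistic. A floor of 3 counts corresponds to 0.0987 to 0.377 CPM and, like all counting error, ignores duplicate molecules. Alternatives used DESeq2 1.42.0, other scalings, filters and designs, and each library left out in turn. On simulated counts for 32 h, 71% of genes changed 2-fold and 32% changed 1.5-fold were recovered. The simulation changed 100 genes by each size among 18707, and its libraries otherwise differed by depth and random spread only. In the measured data 913 genes were called higher and 858 lower at 32 h, so these rates need not hold there. Libraries were grouped by their titles, none was left out, and no pair held identical counts. The members and gene lists were chosen with earlier results of these data known. All members are described; of each pathway list up to 4 called genes with the smallest p are named per comparison. The gene Usp10 was not tested in any table, and Thbs1 not in cycling FOXD3-iKO cells.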

Additional observations from a re-analysis of the deposited data

Results flagged for a closer look

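These members were flagged because a test of the difference itself called them. The FOXD3 response at 24 h less the OCT4 response at 24 h (log2, joint edgeR fit) was 0.91 for Trp53, -1.10 for Cdkn1a, 1.03 for Gadd45a, -1.13 for Plk3, 1.09 for Psrc1, 0.63 for Bbc3, 0.97 for Perp, 0.58 for Ei24 and 1.02 for Pidd1. The FOXD3 response at 32 h less that at 8 h was 0.98 for Mdm2, 0.86 for Trp53inp1, 1.37 for Plk2, 1.10 for Ptpn14, 1.65 for Perp and 0.87 for Ercc5, from the test over all 4 times.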

How the results depend on the processing

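Counts of members called, out of 32, moved by over 1.5 times as follows. For the response differing over 8 to 32 h (6) they were 12 with DESeq2, 11 with total counts, 14 with the length trend removed and 13 with no low-count filter. The response at 32 h less that at 24 h (0) gave 2 with DESeq2 and 2 with the length trend removed. Ethanol at 32 h less 24 h (1) gave 4 with DESeq2, 2 with total counts outside Gm26917 and Gm42418, 8 with the length trend removed, 5 with no filter and 0 with only the groups compared. Loss of FOXD3 gave 13 at 24 h (7) with the length trend removed and 6 at 32 h (18) with only the groups compared. OCT4 loss at 16 h (6) gave 11 with total counts, 15 with the length trend removed, 10 with no filter and 20 with only the groups compared. At 24 h (15) it gave 8 with only the groups compared, and the 24 h less 16 h response (0) gave 1 with the length trend removed. FOXD3 less OCT4 at 24 h (9) gave 14 with the length trend removed. Cycling less arrested (0) gave 7 with DESeq2, 10 with total counts, 3 with total counts outside Gm26917 and Gm42418, 7 with the length trend removed and 10 with no filter.

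Over release, the ethanol change (11) gave 6 with total counts, 7 outside the ribosomal copies and 1 with only the groups compared, and the 4HT change (5) gave 8 with DESeq2, 3 with total counts, 11 with no filter and 19 with only the groups compared. The response differing over release (0) gave 4 with no filter. By time, DESeq2 gave 6, 4, 2, 6 and 3 at 0, 1, 2, 3 and 5 h (0, 1, 0, 3 and 0 with edgeR). RLE factors gave 2 at 1 h and 1 at 5 h. Total counts gave 0 at 1 and 3 h, and outside the ribosomal copies 0 at 1 h. With the length trend removed the counts were 1, 0 and 1 at 0, 1 and 3 h. With no filter they were 5, 2, 1, 1 and 3 at 0, 1, 2, 4 and 5 h, and with only the groups compared 0 at 1 and 3 h. Over all release times, Btg2 turned to 0.0021 with the length trend removed, Tnfrsf10b to -0.1117 and -0.0683 and Trp53 to -0.0771 and -0.0341 with total counts and with total counts outside the ribosomal copies. The cause of these moves was not tested.

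The replicate numbers did not establish pairing, since in no table was every correlation of same-numbered libraries over 0.1. They correlated from -0.0974 to 0.19 in cycling FOXD3-iKO cells and 0.0066 to 0.229 in synchronized cells, where all 6 were positive. In OCT4-tetOff cells the values were -0.113 at 16 h and 0.418 at 24 h. Same-numbered OCT4-tetOff libraries of 24 h may thus share a shift, which the main fit leaves out. With the replicate block the counts were 10 for OCT4 loss at 16 h, 10 for the 4HT change over release, and 1, 4, 1, 8 and 3 at 0, 1, 2, 3 and 5 h of release, and no other count moved by over 1.5 times. With the numbers crossed at 16 h of OCT4 loss, chosen after seeing the data, 8 were called.

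Leaving out each library in turn gave 0 to 8 at 24 h and 11 to 20 at 32 h of FOXD3 loss, 1 to 12 for times differing, 0 to 5 for 32 h less 24 h and 1 to 12 for the ethanol times. It gave 2 to 11 and 10 to 17 for OCT4 loss at 16 and 24 h, 5 to 13 for FOXD3 less OCT4 and 0 to 9 for cycling less arrested. Over release it gave 11 to 16 for all times, 4 to 21 with ethanol, 4 to 10 with 4HT, and 0 to 8, 0 to 3, 0 to 2, 0 to 9 and 0 to 1 at 0, 1, 2, 3 and 5 h. At 1 h the count moved for most libraries, and at 3 h it was 0 without either 4HT 3 h library. Where a group kept 1 library, that library was assumed to vary like the other groups. With 2 libraries a group, 1.5-fold changes were often missed on simulated counts, and Fas rests on few counts.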
